A study of Homo sapiens with 55 samples.

Results

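MTERF2 and CRNDE are 2 human genes in which an upstream 3′ splice site was used less in leukemia cells carrying the SF3B1 K700E mutation. The members are all splicing events of the deposited files whose coordinates lie in windows around these genes on the minus strand (hg19): 6 events of MTERF2 and 2 of CRNDE, 8 of 110816 events in all. The genes were selected on the measured isoform shares of K700E against WT cells in the SF3B1 panel. The K700E contrast is therefore described here without a test for any event of these genes, and it supports nothing below.

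RNA sequencing of polyadenylated RNA was done in K562, an established myeloid leukemia line, and in 293T, an established embryonic kidney line. Guide RNAs in these cells were sgRenilla (a control guide), sgSUGP1 or sgGPATCH8. The SF3B1 panel had K562 cells without the knock-in (WT) or with the SF3B1 K700E knock-in, each with 1 sgRenilla, 2 sgSUGP1 and 2 sgGPATCH8 libraries, and each library had 2 sequencing runs whose values were averaged. Whether these runs repeat 1 library or are separate libraries is not given in the sources used here. If they are separate, each group held more libraries than counted here. In that panel the 2 libraries of a target came from different guides. The SRSF2 panel had K562 cells overexpressing SRSF2 WT or SRSF2 P95H, and the U2AF1 panel had K562 cells overexpressing U2AF1 WT or U2AF1 S34F, each with sgRenilla or sgGPATCH8 and 3 libraries a group, so the WT groups of these panels also carry an introduced gene. The 293T panel had 2 sgRenilla libraries, 4 sgSUGP1 and 4 sgGPATCH8 libraries, with 2 guides a target and 2 libraries a guide. The labels divide these samples into WT-1 and WT-2: the sgRenilla samples carry the first name, while sgSUGP1 and sgGPATCH8 samples occur with both. What these names stand for is not given in the sources used here. If they are different cells, part of the sgSUGP1 and sgGPATCH8 libraries had no control of their own, which touches each 293T comparison with sgRenilla. Whether a K562 genotype was 1 clone, and whether replicates were separate cultures, is not given in the sources used here, so the p-values measure the spread between these libraries, which may be technical. In the SF3B1 panel the single sgRenilla library of a genotype has no measured spread. The spread used in the tests of that panel comes from the sgSUGP1 and sgGPATCH8 libraries, whose 2 members differ in guide. Values are the percentage of an event's isoforms that is the isoform listed first. They are isoform shares and not levels: nothing here tells how much RNA either gene made, and the files give no counts, so the depth behind a value is unknown and loss of SUGP1 or GPATCH8 RNA was not checked.

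SF3B1 is the part of the U2 small nuclear ribonucleoprotein that helps to fix the branch point, the intron base that is joined to the 5′ splice site before the 3′ splice site, or acceptor, is cut. K700E is a hotspot mutation known for making cells use cryptic acceptors upstream of the usual one. SUGP1 is a G-patch protein that binds SF3B1 and whose contact is weakened by such mutations. GPATCH8 is another G-patch protein, and G-patch proteins can activate DEAH-box RNA helicases. MTERF2 encodes a member of the mitochondrial transcription termination factor family, nuclear-encoded proteins that act on mitochondrial nucleic acids. CRNDE is a long noncoding RNA gene, first described for its raised expression in colorectal neoplasia.

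The acceptors are shown first because all results below turn on which of them was used. In MTERF2 the exon edges lie at 107379003 for the upstream and 107378993 for the downstream acceptor of chromosome 12 (hg19), 10 nt apart, both joined to the exon that ends at 107380747. The introns match annotated GENCODE 29 transcripts by exact length: the upstream acceptor begins an exon of 111 nt and the downstream acceptor an exon of 101 nt. This exon is 5′ UTR: in all 6 annotated transcripts with a start codon, the start codon lies 3′ of the exon, so the choice of acceptor does not touch the coding sequence. In CRNDE the file lists 3 acceptors on chromosome 16 (hg19), at 54954322, 54954250 and 54954239, joined to the exon that ends at 54957497. The second lies 72 nt and the third 83 nt downstream of the first, and the same exon is 113, 41 or 30 nt long in GENCODE 29. The file gives only the share of the most upstream CRNDE acceptor, and does not separate the other two. Both sequences were read from GENCODE 29 transcripts (GRCh38, minus strand), with the AG of each acceptor in capitals.
MTERF2 acceptors (chr12:106985212-106985241): aaatgccattggcaAGtttattgcAGggaa
CRNDE acceptors (chr16:54920316-54920450): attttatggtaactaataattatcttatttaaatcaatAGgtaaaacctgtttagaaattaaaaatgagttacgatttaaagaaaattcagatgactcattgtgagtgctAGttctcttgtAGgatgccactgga
In the 20 bases before the AG, pyrimidines made up 50% at the upstream and 55% at the downstream MTERF2 acceptor. In CRNDE they made up 60% at the first, 50% at the second and 60% at the third acceptor. The intron ended in aag at the upstream MTERF2 site and in cag at the downstream one, while all 3 CRNDE sites ended in tag. The map of the exon shows these starts to scale.

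**Figure D1:**
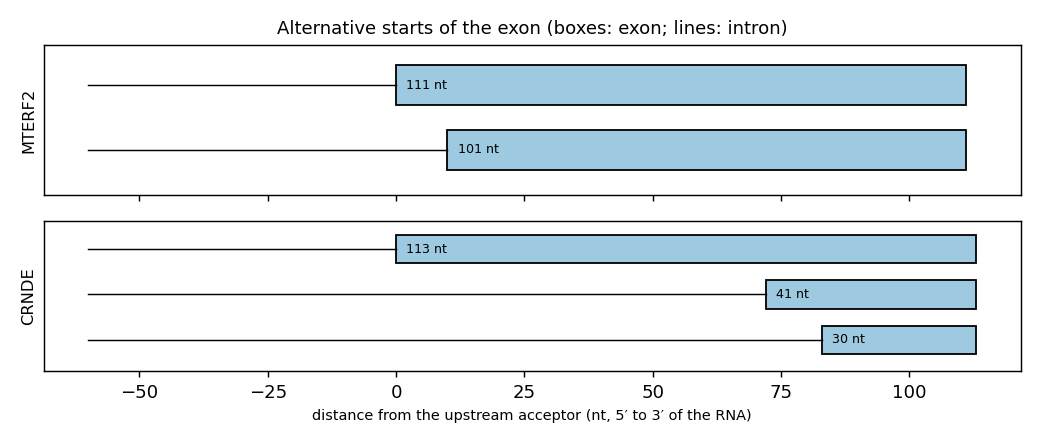
Alternative starts of the MTERF2 and CRNDE exons, as distance in nt from the most upstream acceptor. The MTERF2 starts lie 10 nt apart, and the CRNDE starts lie 72 and 83 nt downstream of the first.

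In the WT K562 cells of the SF3B1 panel with sgRenilla, 67.5% of MTERF2 isoforms used the upstream acceptor, and in the K700E cells with sgRenilla 5%. Over all 5 K700E libraries the upstream share ran from 5% to 7% (median 5.5%), while the 5 WT libraries ran from 16.5% to 73% (median 67.5%). The CRNDE upstream acceptor stood at 74.5% in the sgRenilla library without the knock-in and at 14.5% in the one with it. Its 5 K700E libraries ran from 12.5% to 20% (median 14.5%) and its 5 WT libraries from 17% to 74.5% (median 67%). The 2 genotypes did not overlap for MTERF2 but did for CRNDE, because the low WT libraries were those with sgSUGP1. The difference, K700E minus WT, was -62.5 points for MTERF2 and -60 points for CRNDE with sgRenilla, -66 and -48 points with sgGPATCH8, and -13.75 and -9.5 points with sgSUGP1. Averaged over the 3 guide targets it was -47.42 points for MTERF2 and -39.17 points for CRNDE. These values chose the genes and stand as a description. Over all 50823 events tested in the panel, 3.34% were called in this averaged contrast, 1080 with a higher and 618 with a lower share of the first isoform. An event is called here where limma's moderated test on the log2 ratio of the isoform share to the rest gave a Benjamini-Hochberg adjusted p below 0.05 over all events tested and the group means differed by at least 5 points.

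**Figure D2:**
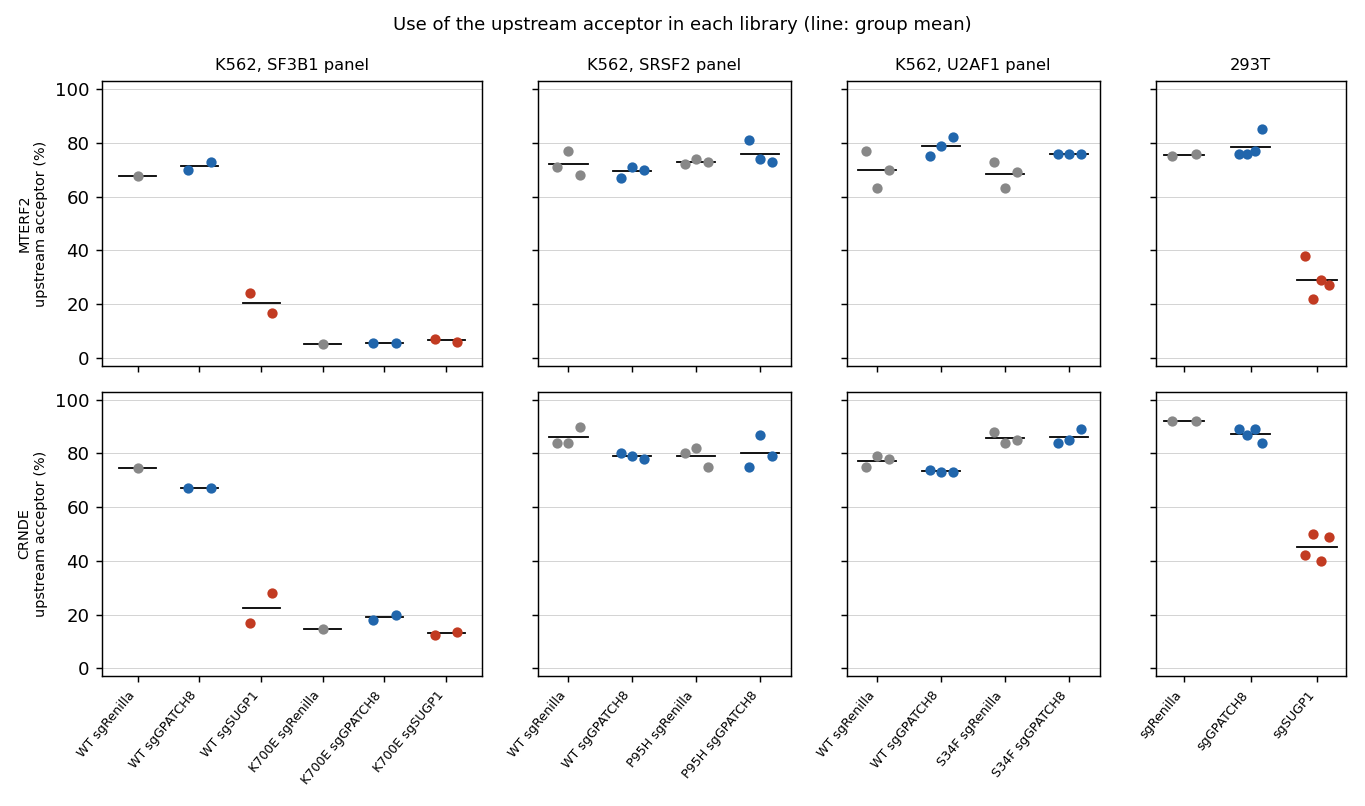
Use of the upstream acceptor (% of isoforms) of MTERF2 and CRNDE in each of 44 libraries, by group, with a line at the group mean. K700E and sgSUGP1 groups are low, and all sgGPATCH8 groups outside the K700E cells lie at or above 67%.

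In cells without the SF3B1 mutation, the upstream share of both genes was lower in every sgSUGP1 library than in every sgRenilla library of the same line, and the change was called for CRNDE in 293T. In WT K562 cells the MTERF2 share was 24% with guide 3 and 16.5% with guide 4 of sgSUGP1, against 67.5% in the single sgRenilla library. The CRNDE share was 17% with guide 3 and 28% with guide 4, against 74.5% with sgRenilla. Each sgSUGP1 library lay far below the sgRenilla library. The change of the MTERF2 log2 ratio was -2.98 ± 0.31 (SE) with an adjusted p of 0.08, and that of CRNDE was -3.29 ± 0.37 with an adjusted p of 0.0947 (limma, over all 50823 events tested), so neither was called. Of all events 0.0197% were called in this comparison. These libraries also entered the contrast that chose the genes, so the comparison is not independent of the choice. The MTERF2 value lies near the threshold. With a value required in both runs of every library, its adjusted p was 0.0479, which is called, and that of CRNDE 0.0547, which is not; with no filter on group means that of MTERF2 was 0.0494.

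The 293T libraries took no part in the choice. The MTERF2 upstream share was 75% and 76% with sgRenilla, and 38%, 29%, 22% and 27% with sgSUGP1 (guide 3 for the first pair, guide 4 for the second). The CRNDE share was 92% in both sgRenilla libraries, and 42%, 40%, 50% and 49% with sgSUGP1. The 4 sgSUGP1 libraries lay below both sgRenilla libraries for each gene, with no overlap. How many of all events separate in the same way was not counted. For CRNDE the share fell by 46.75 points, a log2 ratio change of -3.64 ± 0.22 (adjusted p = 0.0134, limma), and it was called. For MTERF2 the difference was -46.5 points, a log2 ratio change of -2.87 ± 0.31, with an adjusted p of 0.0525, just short of the threshold. Of all 46493 events tested, 0.0452% were called in this comparison. The CRNDE call was lost when any 1 of 6 libraries (2 sgRenilla, 4 sgSUGP1) was left out, with adjusted p from 0.104 to 0.221 and log2 ratio changes from -3.67 to -3.61. The MTERF2 change was called with an offset of 0.05 (adjusted p = 0.0417), with the libraries of a target as 1 group (0.0201) and with no filter on group means (0.0191), and was not called in the other 8 alternatives (up to 0.344).

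Against sgGPATCH8, which gave 4 libraries in place of 2, both genes were called in 293T. The sgGPATCH8 libraries had MTERF2 shares of 76%, 77%, 76% and 85%, and CRNDE shares of 89%, 89%, 87% and 84%. The sgSUGP1 libraries were lower by 49.5 points for MTERF2, a log2 ratio change of -3.13 ± 0.25 (adjusted p = 0.00434, limma), and by 42 points for CRNDE, a change of -2.97 ± 0.18 (adjusted p = 0.00215). Of all events, 0.746% were called here. Both calls held in each of 13 alternative fits for each gene. The sgSUGP1 libraries are shared with the comparison against sgRenilla, so the 2 comparisons are not separate evidence.

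The 2 guides against SUGP1 ordered the genes differently. In 293T guide 3 gave the higher MTERF2 mean share and the lower CRNDE mean share. The order was the same in WT K562 cells, where each guide had a single library. There the MTERF2 values of the runs overlapped, at 30% and 18% with guide 3 and 19% and 14% with guide 4. The CRNDE values did not, at 16% and 18% with guide 3 and 26% and 30% with guide 4. In 293T guide 3 was above guide 4 by 9 points for MTERF2 and below it by 8.5 points for CRNDE. This contrast was chosen after the values were seen. Neither difference passed (adjusted p = 0.896 and 0.884, limma), and none of 49031 events was called between the guides.

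In K700E cells both shares were low with either guide. The MTERF2 share was 7% and 6% with sgSUGP1 against 5% with sgRenilla, and CRNDE was 12.5% and 13.5% against 14.5%. The log2 ratio differed by 0.34 for MTERF2 (95% interval -0.42 to 1.10) and by -0.17 for CRNDE (-1.08 to 0.73), neither called, where 0.0944% of all events were. The SUGP1 difference in K700E cells minus that in WT cells was 48.75 points for MTERF2 and 50.5 points for CRNDE. It is made of the same K700E values that chose the genes, so it has no test here. Over all events none was called in that interaction by limma (0%), and 4713 had an unadjusted p below 0.05.

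In K700E cells with GPATCH8 loss both upstream shares lay near those of the K700E sgRenilla library and far below those of the WT libraries with sgRenilla or sgGPATCH8. The MTERF2 share was 5.5% in both sgGPATCH8 libraries against 5% with sgRenilla, and the CRNDE share was 18% and 20% against 14.5%. The difference was 0.5 points for MTERF2, a log2 ratio change of 0.12 (95% interval -0.64 to 0.88, adjusted p = 0.939), and 4.5 points for CRNDE, a change of 0.44 (-0.46 to 1.35, adjusted p = 0.755). For comparison, 7 of 50823 events, or 0.0138%, were called in this comparison. In WT K562 cells the shares with sgGPATCH8 were 70% and 73% for MTERF2 and 67% in both libraries for CRNDE, changes of 0.27 and -0.51 on the log2 scale that were not called (0.0059% of all events were). The difference in K700E cells minus that in WT cells was -3.5 points for MTERF2 and 12 points for CRNDE, again without a test, with 0.0295% of all events called in this interaction. The GPATCH8 and SUGP1 comparisons within a genotype use libraries that entered the choice. Of 2 events of opposite direction, in which K700E raised the upstream acceptor, MAP3K7 stood at 63% with sgRenilla and 22.5% with sgGPATCH8 in the K700E cells, and TMEM14C at 58.5% and 59%.

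In 293T, the difference of the log2 ratio with GPATCH8 loss was 0.26 for MTERF2 and -0.67 for CRNDE (adjusted p = 0.88 and 0.465, limma), with 0.0731% of all events called. The CRNDE share was lower in all 4 sgGPATCH8 libraries (84% to 89%) than in both sgRenilla libraries (92%).

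**Figure D3:**
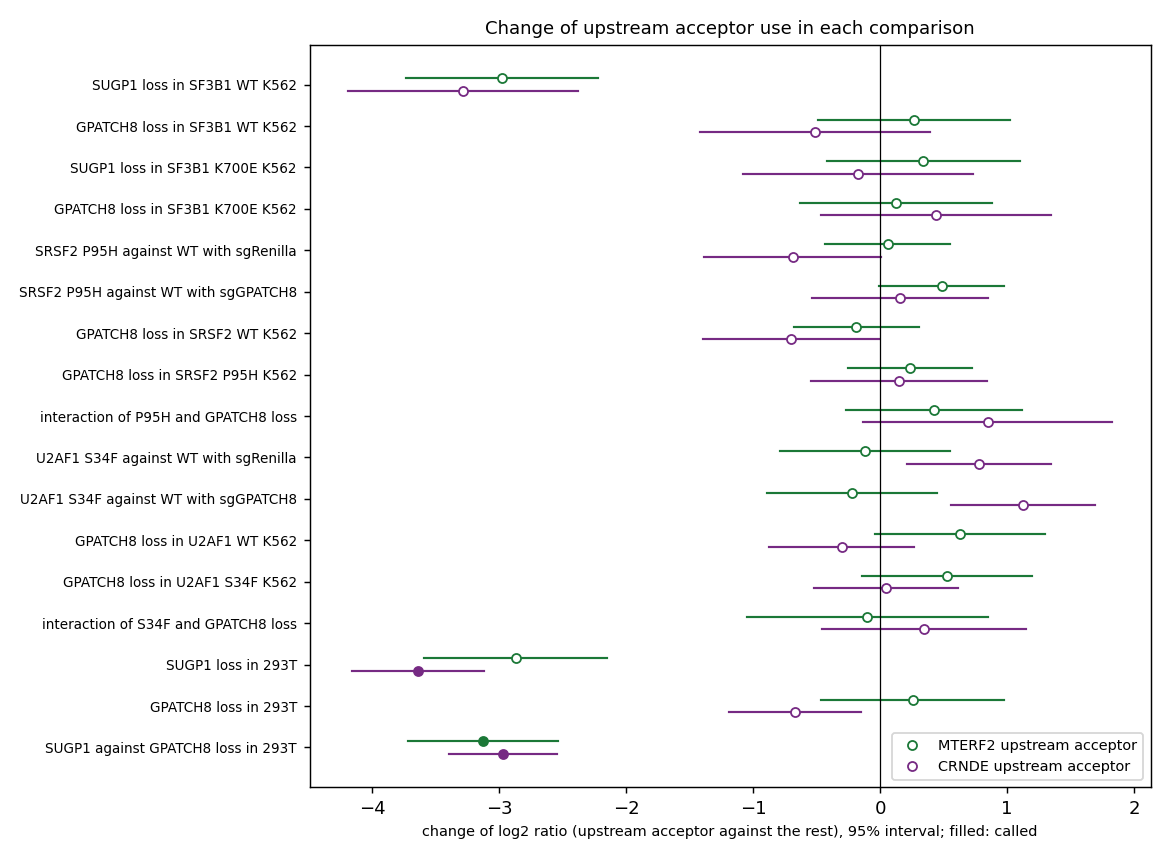
Change of the log2 ratio of upstream acceptor use for MTERF2 and CRNDE in 17 comparisons, with 95% intervals; filled points were called. The 3 filled points are the 293T values of CRNDE with SUGP1 loss and of both genes for SUGP1 against GPATCH8 loss.

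Neither acceptor was called between cells overexpressing SRSF2 P95H and SRSF2 WT. MTERF2 shares were 71%, 77% and 68% in SRSF2 WT cells and 72%, 74% and 73% in P95H cells with sgRenilla. CRNDE shares were 84%, 84% and 90% in WT cells, and 80%, 82% and 75% in P95H cells, so P95H was lower in every library. The difference of -7 points, a log2 ratio change of -0.69 (95% interval -1.384 to 0.004), was not called (adjusted p = 0.351, limma). With sgGPATCH8, MTERF2 shares were 67%, 71% and 70% in WT and 81%, 74% and 73% in P95H cells. This difference of 6.67 points was a log2 ratio change of 0.484 (95% interval -0.007 to 0.976). CRNDE shares with sgGPATCH8 were 80%, 79% and 78% in WT and 75%, 87% and 79% in P95H cells. With GPATCH8 loss in SRSF2 WT cells the CRNDE share differed by -7 points. This was a log2 ratio change of -0.701 (95% interval -1.394 to -0.007, adjusted p = 0.439, limma). In P95H cells the CRNDE change with GPATCH8 loss was 0.147 (-0.547 to 0.84). Neither gene's acceptor was called in any of the 5 comparisons of this panel. The shares of all 43963 events called were 1.07% for P95H with sgRenilla, 4.04% for P95H with sgGPATCH8, 0.491% for GPATCH8 loss in WT, 4.82% for GPATCH8 loss in P95H cells and 0.0614% for the interaction.

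With U2AF1 S34F the CRNDE upstream share was higher than with U2AF1 WT, without a call. With sgRenilla it was 75%, 79% and 78% in WT and 88%, 84% and 85% in S34F cells. With sgGPATCH8 it was 74%, 73% and 73% in WT and 84%, 85% and 89% in S34F cells. The groups of 3 libraries did not overlap under either guide, but how many of all events separate in the same way was not counted. The log2 ratio was higher by 0.78 ± 0.26 (adjusted p = 0.355) and by 1.13 ± 0.26 (adjusted p = 0.128, limma), in a panel in which 0.0023% and 0.023% of all 43468 events were called. Same-numbered libraries of this panel deviated together (r from 0.075 to 0.402). With the replicate number as a block the adjusted p for CRNDE was 0.218 and 0.0716, still not called, while the events called rose from 1 to 15 and from 10 to 378 of 43468. MTERF2 shares were 77%, 63% and 70% in WT and 73%, 63% and 69% in S34F cells with sgRenilla, overlapping, and 75%, 79% and 82% against 76% in each of 3 libraries with sgGPATCH8. GPATCH8 loss called neither gene in WT cells (0.0322% of all events called) or in S34F cells (0.0345%), also with the block, which called 25 and 32 events in place of 14 and 15. No event was called in the interaction by limma (0%), where 1911 events had an unadjusted p below 0.05.

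The other MTERF2 events share junctions with the acceptor event and are not independent of it. The intron before the exon is measured by a pair of events, one for splicing to each acceptor, and in 44 libraries these 2 values differed by 0 to 5 points (median 3), so they are nearly 1 measurement. In the SF3B1 panel the downstream event gave a spliced share, against the retained intron, of 68.5% in the WT sgRenilla library and 97% in the K700E one. The upstream event gave 71% and 96% in these libraries, although their upstream acceptor shares were 67.5% and 5%. The values are therefore read as spliced against retained intron, and not as use of either acceptor. With sgSUGP1 in WT cells the spliced share of the downstream event was 87% and 90.5%, and with sgGPATCH8 68.5% and 65.5%. In 293T it was 75% and 79% with sgRenilla, 86%, 87%, 86% and 84% with sgSUGP1 (adjusted p = 0.492, limma) and 75% to 78% with sgGPATCH8. For the downstream event the sgSUGP1 libraries of WT K562 and of 293T lay above all other libraries of the same cells. For the upstream event this held in WT K562 only. In 293T sgSUGP1 guide 4 replicate 2 and sgRenilla replicate 2 both stood at 82% for it (adjusted p = 0.725, limma). In WT K562 SUGP1 loss called neither event (adjusted p = 0.206 downstream and 0.352 upstream). How many of all events separate in the same way was not counted.

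In the SRSF2 panel the same intron was called for P95H against WT with sgGPATCH8, and in no other comparison of that panel. Of all 43963 events, 4.04% were called in that comparison. The spliced share of the downstream event was 49%, 53% and 49% in WT cells with sgRenilla, and 57%, 58% and 59% in P95H cells. With sgGPATCH8 it was 54%, 55% and 60% in WT cells and 69%, 66% and 66% in P95H cells. The groups were ordered in this way without overlap under each guide, but how many of all events separate in the same way was not counted. The difference of 10.67 points with sgGPATCH8 was called, with a log2 ratio change of 0.64 ± 0.15 (adjusted p = 0.0381, limma), as was the event for the upstream acceptor (10.67 points, adjusted p = 0.049). The difference of 7.67 points with sgRenilla was not called (adjusted p = 0.2), and the interaction of P95H and GPATCH8 loss was not (adjusted p = 0.753), so the 2 guides were not shown to differ. The upstream event lost its call when any 1 of the 6 libraries was left out, and the downstream event when any 1 of 5 of the 6 was left out, the exception being WT sgGPATCH8 replicate 3. Both were lost in a fit with the replicate number as a block, and the adjusted p of the upstream event was 0.0509 with an offset of 0.05.

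In the U2AF1 panel the intron differed between replicates rather than groups. In replicate 1 the spliced share of the downstream event was 76%, 78%, 78% and 70% in the 4 groups. In replicates 2 and 3 it ran from 55% to 64%. No comparison of this event was called in that panel. What distinguishes replicate 1 is not given in the sources used here.

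**Figure D4:**
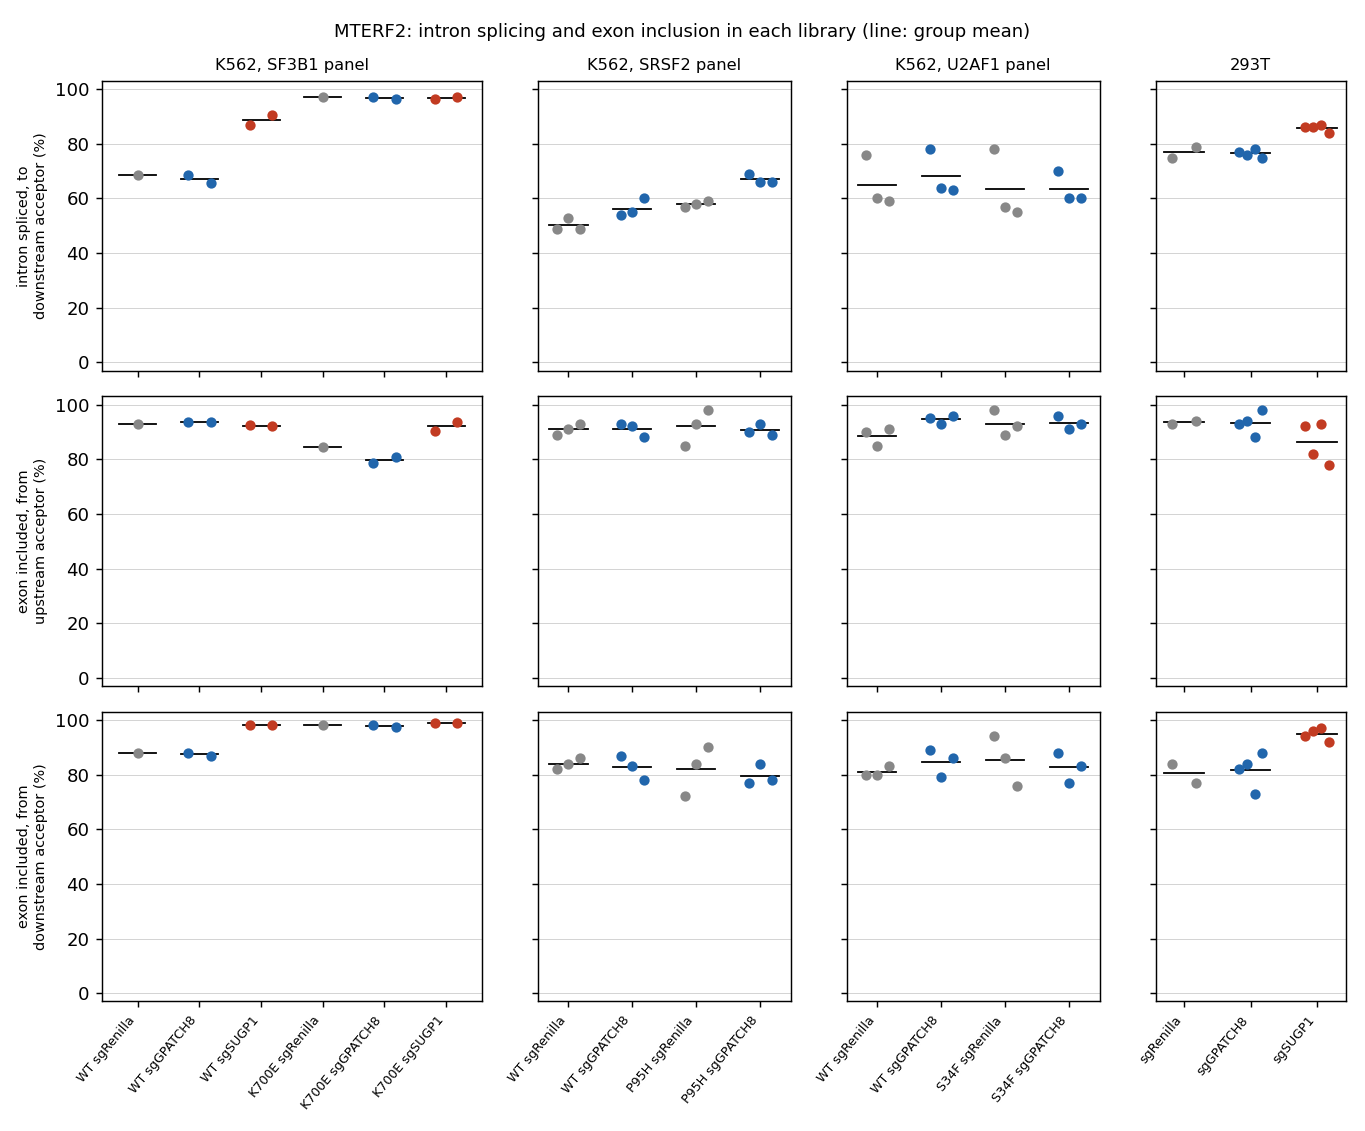
MTERF2 intron splicing against retention (event of the downstream acceptor) and inclusion of the exon from either acceptor (% of isoforms) in each library, with a line at the group mean. K700E and sgSUGP1 libraries are high for intron splicing and for inclusion from the downstream acceptor, and replicate 1 of each U2AF1 group is high for intron splicing.

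Inclusion of the exon, measured against skipping it, differed in opposite directions for its 2 forms between the sgRenilla libraries of K700E and WT cells. With the upstream acceptor, 93% of isoforms included the exon in the WT sgRenilla library and 84.5% in the K700E one, with 78.5% and 81% in K700E sgGPATCH8 and 90.5% and 93.5% in K700E sgSUGP1 libraries. With the downstream acceptor, inclusion was 88% in WT and 98% in K700E cells with sgRenilla, and 98% in both WT sgSUGP1 libraries. In 293T, inclusion from the downstream acceptor was 84% and 77% with sgRenilla, 94%, 97%, 96% and 92% with sgSUGP1, and 73% to 88% with sgGPATCH8, and neither sgSUGP1 comparison was called (adjusted p = 0.351 against sgRenilla and 0.0894 against sgGPATCH8). Both shares are measured against the same skipping junction, so each depends on how often its acceptor was used.

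The remaining members were rare. The MTERF2 exon of 93 nt, which lies further downstream, was included in 2% to 9% of isoforms over the 44 libraries and was called in no comparison. The CRNDE exon of 87 nt was included in 0% to 3% and passed the filter on low values in no panel, whereas 7 of the 8 members did so in every panel.

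Over the 10 libraries of the SF3B1 panel the log2 ratios of the MTERF2 and CRNDE acceptors had a Pearson correlation of 0.945, a description of libraries chosen for these genes that share genotype and guide. Among 12527 other alternative acceptor events, the 5 most like MTERF2 were in SLC12A9, DNHD1, TRIM38, WRAP73 and CERCAM (r from 0.958 to 0.982), and the 5 most like CRNDE were in TRIM38, DVL2, ZNF561, ABCC5 and WRAP73 (r from 0.962 to 0.974). In 293T the upstream share of DVL2, a Wnt signalling adaptor, was 95% with sgRenilla, 71% with sgSUGP1 and 95.75% with sgGPATCH8 (group means). That of ZNF561, a zinc finger gene, was 90.5%, 63.25% and 90%, and that of WRAP73, a WD repeat gene, 97.5%, 87% and 97.5%. SLC12A9, a transporter gene, stood at 6.5%, 8.5% and 6.25%, and CERCAM at 22%, 18.5% and 20%. SUGP1 loss in 293T called none of the 7 of these genes' events that were tested (adjusted p of at least 0.0642), and the DNHD1 event was not tested. In WT K562 cells, in libraries that also entered the choice of these events, DVL2 was lower by 34.25 points with SUGP1 loss (adjusted p = 0.0476). The opposite direction is shown by TMEM14C and MAP3K7, known gains of K700E. The TMEM14C upstream share was 5% in WT and 58.5% in K700E cells with sgRenilla, and 7.5% with sgRenilla and 47.75% with sgSUGP1 in 293T (adjusted p = 0.0226). That of MAP3K7 was 9.5% and 63% in K562 cells, and 3.5% and 35% in 293T (adjusted p = 0.0425).

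Calls in 2 functional groups of genes are given beside the share of all events called. Of the 22 genes for mitochondrial transcription and RNA processing, 19 had tested events in the SF3B1 panel (61 events). In the averaged K700E contrast 1 of these events (1.64%), in MTERF4, was called, with a share 20.5 points higher. That event is an alternative acceptor, like that of MTERF2, and its change had the opposite sign. Of 26 long noncoding RNA genes, 17 had 108 tested events, and 1 (0.926%), an exon of DLEU2, was called, 25.5 points higher. Of all events 3.34% were called in this contrast. The median absolute difference was 2 points for the mitochondrial list and 2.13 points for the noncoding list, against 2.33 points over all events. In 293T no event of either list was called with SUGP1 loss, among 50 and 96 tested. Of all events 0.0452% were called there, a share so low that the absence says little about either list. In the SRSF2 panel, P95H with sgGPATCH8 called 2 of 49 events of the mitochondrial list (4.08%), 1 higher in POLG and 1 lower in TFAM, and 12 of 92 events of the noncoding list (13%), 4 higher and 8 lower, against 4.04% of all events. Of these 12, 9 lie in 1 gene, GAS5, a host gene of small nucleolar RNAs. GPATCH8 loss in P95H cells called 2 of 49 events, again 1 higher in POLG and 1 lower in TFAM, and 12 of 92, of which 9 lie in GAS5, against 4.82% of all events. The median absolute difference of the noncoding list was 3.83 and 4.83 points in these comparisons, against 3 points over all events in each. They share the P95H sgGPATCH8 libraries.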

How the data were processed

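Isoform shares are fractions (0 to 1, to 2 decimals) of the isoform listed first in each event, as deposited by the authors; the unit was read from the values. RSEM 1.2.4, Bowtie, TopHat2 2.0.8b and TopHat, with hg19, are listed per the submitters' processing notes, with no role given. Of 110818 events, 2 had no coordinates. All 54 value columns were used for 55 listed samples, since a replicate listed with 2 runs had 1 column. Depth is unknown. Gene names came from exact matches of intron lengths to GENCODE 29 (92.5% of events).

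Shares were analysed as log2((f + 0.01)/(1 - f + 0.01)) with limma 3.58.1 (R 4.3.3, trended prior variance), 1 mean per group, or per guide in 293T with guides weighted equally, over events with a value in every library, some group mean of at least 5% and some of at most 95%, with Benjamini-Hochberg adjustment over all events of a panel. The fit of P95H against WT with sgRenilla was tried on data simulated from the SRSF2 panel. The designs of the other panels were not tried in this way. Events named in the text are all members, the 5 events most correlated with each acceptor event (1 per gene), TMEM14C and MAP3K7. Where groups are said not to overlap, the share of all events that separate in the same way was not counted.

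The members and gene lists were chosen with earlier results of these data known. The SF3B1 runs were first averaged only where both had a value, and then wherever either had one. The second version was adopted as the main fit after the results of the first had been seen; it turns the MTERF2 change with SUGP1 loss in WT K562 cells from a call (adjusted p = 0.0479) into none (0.08). Same-numbered replicates were compared for shared deviations. Their correlations were -0.005 to 0.018 (SF3B1), -0.048 to 0.033 (SRSF2), 0.075 to 0.402 (U2AF1) and -0.026 to 0.012 (293T). The main fits did not take the numbers as pairs in any panel, although those of the U2AF1 panel deviated together. In the U2AF1 panel 13 of 18 correlations were above 0.1, and the fit with the replicate number as a block is given beside its results. The planned tests of the interactions with K700E are not reported for the members, since they are made of the values that chose them. Alternatives tried were an offset of 0.05, no filter, single runs, each replicate left out, a replicate block, targets as 1 group and, added later, both runs required, guides contrasted and a filter on guide means.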

Additional observations from a re-analysis of the deposited data

Results flagged for a closer look

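One 293T sgGPATCH8 library had a MTERF2 upstream acceptor share of 85%, against 76%, 76% and 77% in the other 3, a gap beyond the 95% critical value of Dixon's test for 4 samples. Chance flags about 1 in 20 such groups, and 16 groups of 4 were tested in this way. The cause was not tested.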

How the results depend on the processing

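The K700E description of -47.42 points for MTERF2 and -39.17 points for CRNDE kept its direction in single runs. Of 342 alternative values of the MTERF2 and CRNDE acceptors, 317 kept their direction and their side of the threshold. The MTERF2 change with SUGP1 loss in WT K562 cells, -2.98, was called with no filter on group means and with a value in both runs of every library (-2.98 each), and in 293T it was called with an offset of 0.05 (-2.62), with no filter (-2.87) and with the libraries of a target as 1 group (-2.87); a filter on guide means left it uncalled (adjusted p = 0.0541). The CRNDE change with SUGP1 loss in 293T was not called with a replicate block (-3.64) or with any 1 of its 6 libraries left out (-3.67 to -3.61). The cause of these shifts was not tested, other than that left-out libraries make the groups smaller and no filter changes the number of events tested.

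No other acceptor result crossed the threshold, and 13 values of results that were never called took the other sign. With single runs these were CRNDE in K700E cells, with SUGP1 loss (run 2 alone, 0.31) and with GPATCH8 loss (run 1 alone, -0.06). With 1 replicate left out, the values ranged from -0.08 to 0.24 for MTERF2 with P95H and sgRenilla (1 of them of the other sign), -0.16 to 0.39 for CRNDE with P95H and sgGPATCH8 (1), -0.17 to 0.38 for CRNDE with GPATCH8 loss in P95H cells (2), -0.35 to 0.12 for MTERF2 with S34F and sgRenilla (2), -0.13 to 0.18 for CRNDE with GPATCH8 loss in S34F cells (2) and -0.34 to 0.13 for MTERF2 in the interaction of S34F and GPATCH8 loss (3). Their causes were not tested.

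With no filter on group means, MTERF2 events other than the acceptor were called. Inclusion from the downstream acceptor was called with SUGP1 loss in WT K562 (adjusted p = 0.00783, limma). The downstream event of intron splicing was called with GPATCH8 loss in P95H cells (0.0479) and for SUGP1 against GPATCH8 loss in 293T (0.0447). The replicate block, whose numbers were not shown to pair the libraries outside the U2AF1 panel, lost the 2 MTERF2 intron calls (adjusted p = 0.0982 and 0.0812), called no event with SUGP1 loss in WT K562 (10 without it) or in 293T (21). In the U2AF1 panel, where the numbers carried shared deviations, it changed no call of a member.

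Counts of called events ranged, over all alternatives, from 117 to 2022 for K700E (1698 in the text), 0 to 62 for SUGP1 loss in WT K562 (10), 0 to 35 for GPATCH8 loss in WT K562 (3), 0 to 1121 for SUGP1 loss in K700E (48), 0 to 60 for GPATCH8 loss in K700E (7), 0 to 57 and 0 to 310 for their interactions (0 and 15), 79 to 584 and 738 to 1936 for P95H with sgRenilla and sgGPATCH8 (470 and 1776), 104 to 268 and 1106 to 2196 for GPATCH8 loss in WT and P95H cells (216 and 2121), 5 to 242 for their interaction (27), 0 to 49 and 0 to 378 for S34F (1 and 10), 3 to 25 and 4 to 33 for GPATCH8 loss in the U2AF1 panel (14 and 15), 0 to 2 for that interaction (0), and 0 to 84, 0 to 108 and 90 to 504 in 293T (21, 34 and 347). The single sgRenilla library of each SF3B1 genotype could not be left out. Read depth behind the shares is unknown.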
